A study of Sus scrofa with 4 samples.

Results

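The let-7 family and miR-98 were followed in a back muscle, longissimus dorsi, of 4 pig breeds. Members were chosen by name, as every listed miRNA whose name starts with let-7, together with miR-98. This gave 9 members of 271 listed miRNAs: let-7a, let-7c, let-7d-5p, let-7d-3p, let-7e, let-7f, let-7g, let-7i and miR-98. Each breed was represented by 1 small RNA library. The indigenous Chinese type comprised the Diannan Small Ear and the Tibetan breed, the introduced type the Landrace and the Yorkshire breed, so each type had 2 libraries. The labels name no treatment, allele, age or sex, nor whether a library held 1 animal or a pool. The type comparison therefore measures the spread between breeds, and within a breed there was no replicate. The title of the series places the work in growth and lipid deposition of muscle.

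let-7 was found as a developmental timing gene of the worm Caenorhabditis elegans and is conserved across animals. In mammals several genes give nearly the same mature miRNA, and all the 5p products share a seed, the short stretch at the 5′ end that pairs with target messengers. let-7 miRNAs repress growth-promoting messengers such as those of RAS proteins, HMGA2 and LIN28, and their level increases as cells differentiate. LIN28 proteins in turn block the maturation of let-7 precursors. miR-98 carries the let-7 seed under another name. let-7d-3p is the opposite strand of the let-7d precursor and does not share that seed. In the RefSeq annotation of the Sscrofa11.1 assembly all 9 members matched a named gene, 10 genes in all, of which let-7a and let-7f have 2 each. Reads of a miRNA with 2 genes cannot be assigned to either. The 5p members differ by few bases, so reads may have been shared between them, and their separate values are uncertain to that extent.

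Reads counted to the listed miRNAs totalled between 2507082 (Landrace) and 5346460 (Yorkshire) per library. All 9 members had reads in all 4 libraries. Levels are given as CPM, the counts of a miRNA scaled to a fixed library size, either by the total of the library or after TMM scaling, which sets libraries to a common level by the bulk of their miRNAs and not by the most abundant ones. The most abundant miRNA of a library was miR-10b in Diannan Small Ear (61.9% of its reads) and Landrace (46.0%), and miR-1 in Tibetan (83.4%) and Yorkshire (92.6%), so both scalings are given where they part. Skeletal muscle miRNAs (8 listed rows of miR-1, miR-133, miR-206, miR-208b and miR-499) made up 5.83% of all reads for Diannan Small Ear, 89.9% for the Tibetan, 7.36% for the Landrace and 96.7% for the Yorkshire library. They had reads in all 4 libraries, except that miR-499-3p had 0 reads in Diannan Small Ear and Landrace. The gap came mainly from miR-1, since miR-133a-3p held 5.41%, 2.87%, 6.68% and 1.12% in the same order and lay between 29179 and 40624 CPM after TMM scaling. Less abundant muscle rows were uneven too. miR-133a-5p stood at 50.2, 618, 55.5 and 564 CPM and miR-499-5p at 39.9, 367, 82.2 and 591. miR-208b went the other way, at 86.9, 48.6, 195 and 77.6 CPM, and miR-133b did not split the libraries (625, 492, 587 and 878). Red blood cell miRNAs (3 rows) made up 11.8%, 0.609%, 14.3% and 0.204% in the same order, nearly all of it miR-486, which muscle also expresses. The erythroid miR-451 and miR-144 were instead highest in Tibetan after TMM scaling, at 63.7, 234, 111 and 93.4 CPM and at 3.67, 136, 6.31 and 44.0 CPM. Liver miRNAs made up 0.0668%, 0.000974%, 0.0954% and 0.000411%. Of these, miR-192 had 2989, 25, 2314 and 13 reads and miR-122 had 16, 10, 78 and 9. After TMM scaling miR-122 stood at 2.67, 2.83, 14.1 and 4.89 CPM, which did not set the same libraries apart. Stroma miRNAs ranged from 0.294% to 2.97%, endothelial ones from 0.0626% to 0.643% and white blood cell ones from 0.00303% to 0.0119%. The levels of miR-1, miR-206, miR-486 and the liver miRNA miR-192 set Diannan Small Ear and Landrace apart from Tibetan and Yorkshire. Their directions differed: miR-1 and miR-206 were lower in Diannan Small Ear and Landrace, and miR-486 and miR-192 higher. miR-199a-5p, miR-142-3p and miR-126-3p were also lower there, the last at 146, 1152, 180 and 578 TMM-scaled CPM in the same order. The other arm, miR-126-5p, was higher there (2365, 1859, 2726 and 1238), as was the white blood cell miR-155-5p. The stroma miRNA miR-143-3p did not split the libraries this way (10759, 14558, 13015 and 7406). Most let-7 results below set the same libraries apart. The part of these miRNAs in the let-7 results was not tested. In a bulk sample, fewer cells of a type and less RNA per cell cannot be told apart, and with 1 library per breed neither can breed and library.

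The family made up a larger part of the miRNA reads in Diannan Small Ear and Landrace than in Tibetan and Yorkshire. It took 80549 reads or 1.79% of the library in Diannan Small Ear (95% Wilson interval 1.78 to 1.80), 14168 or 0.394% in Tibetan (0.388 to 0.401), 88567 or 3.53% in Landrace (3.51 to 3.56) and 8094 or 0.151% in Yorkshire (0.148 to 0.155). Each type therefore held 1 library with a high and 1 with a low family share. These and all further intervals cover only the error of counting, and PCR copies of a molecule are counted as separate reads. Without the 5 most abundant miRNAs of the table the family took 10.1%, 3.30%, 12.2% and 2.73% of the remaining reads, in the same order.

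After TMM scaling the summed family stood at 13435 CPM in Diannan Small Ear, 4005 in the Tibetan, 15968 in the Landrace and 4394 in the Yorkshire library. Landrace was 3.63-fold above Yorkshire (95% counting interval 3.55 to 3.72), and Diannan Small Ear was 3.35-fold above Tibetan (3.30 to 3.42). Landrace was 1.19-fold above Diannan Small Ear (1.18 to 1.20) and Yorkshire 1.10-fold above Tibetan (1.07 to 1.13). The last direction turned with total counts, where Tibetan was 2.605-fold above Yorkshire, while Landrace then stood 23.3-fold above Yorkshire. Diannan Small Ear and Landrace stood above Tibetan and Yorkshire under each of the 4 scalings tried.

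The make-up of the family, which no scaling between libraries can alter, differed between the same libraries. let-7f, let-7a and let-7g together held most of the family reads everywhere, but their order changed. let-7f was the most abundant member in Diannan Small Ear, at 44.9% of the family (95% Wilson interval 44.6 to 45.3), and in Landrace, at 42.9% (42.6 to 43.3). It held 28.9% in Tibetan (28.2 to 29.6) and 29.1% in Yorkshire (28.1 to 30.1), second there to let-7g.

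The share of let-7g moved the other way. It held 13.7% of the family in Diannan Small Ear (13.5 to 14.0) and 12.8% in Landrace (12.6 to 13.0), but 50.1% in Tibetan (49.3 to 51.0) and 48.7% in Yorkshire (47.6 to 49.8). let-7a, whose mature form is the same as worm let-7, held 34.0% in Diannan Small Ear (33.7 to 34.3) and 36.7% in Landrace (36.3 to 37.0), against 12.3% in Tibetan (11.8 to 12.8) and 13.6% in Yorkshire (12.9 to 14.4). Thus a library with a high let-7a share had a low let-7g share, and each type contained one library of either make-up. Since the shares add up to the whole family, lower shares of let-7a and let-7f force higher shares of others. A higher share of let-7g is therefore not a higher level, which is given below.

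**Figure D1:**
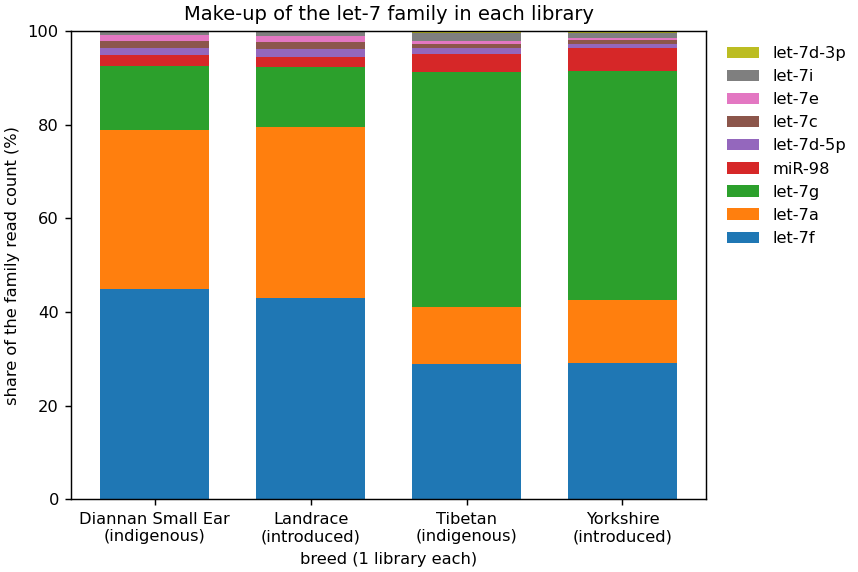
Share of each member in the summed family reads (y axis, percent) for the 4 libraries (x axis, 1 per breed), as stacked bars. let-7f and let-7a fill most of the bars of Diannan Small Ear and Landrace, and let-7g alone fills 50.1% and 48.7% in Tibetan and Yorkshire.

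The other 6 members held small shares. miR-98 took 2.24% of the family in Diannan Small Ear (2.14 to 2.35), 3.85% in Tibetan (3.55 to 4.18), 2.14% in Landrace (2.05 to 2.24) and 4.97% in Yorkshire (4.51 to 5.46), so its share was higher where that of let-7g was. let-7i had its highest share, 1.55%, in Tibetan and its lowest, 0.709%, in Diannan Small Ear. let-7d-3p likewise had larger shares in Tibetan (0.445%) and Yorkshire (0.395%) than in Diannan Small Ear (0.186%) and Landrace (0.174%). let-7c, let-7d-5p and let-7e went with let-7a: let-7e, for example, held 1.21% in Diannan Small Ear and 1.49% in Landrace, and 0.713% in Tibetan and 0.445% in Yorkshire.

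Expressed as the part of the family reads that would have to change member to turn one library's make-up into another's, Diannan Small Ear and Landrace were 3.05 percentage points apart and Tibetan and Yorkshire 2.62. The distance was 39.1 points between the 2 indigenous libraries and 39.3 between the 2 introduced ones. It was 38.2 between Diannan Small Ear and Yorkshire and 40.2 between Tibetan and Landrace. In each of these 4 wide distances let-7g was the member whose share moved most, by 34.98 to 37.36 points in size.

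Set out by level, let-7g was the member whose TMM-scaled level differed least between libraries. Its counts were 11061 in Diannan Small Ear, 7103 in the Tibetan, 11318 in the Landrace and 3943 in the Yorkshire library, which gave 1845, 2008, 2041 and 2141 CPM. The highest was 1.16 times the lowest. This evenness depends on the scaling, as the ratio was 1.29 with RLE, 1.497 with upper-quartile and 6.12 with total-count scaling.

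let-7a had counts of 27400 in Diannan Small Ear, 1740 in the Tibetan, 32474 in the Landrace and 1102 in the Yorkshire library, or 4570, 492, 5855 and 598 TMM-scaled CPM. Its level in Diannan Small Ear was 9.29-fold that in Tibetan (8.85 to 9.76), and its level in Landrace 9.79-fold that in Yorkshire (9.22 to 10.4). let-7f had counts of 36186, 4094, 38034 and 2353 in the order Diannan Small Ear, Tibetan, Landrace, Yorkshire, or 6036, 1157, 6857 and 1277 CPM. The corresponding ratios were 5.22-fold (5.05 to 5.39) and 5.37-fold (5.15 to 5.60). With total counts the ratios of Diannan Small Ear to Tibetan were 12.6 for let-7a and 7.06 for let-7f, and those of Landrace to Yorkshire 62.8 and 34.5. That scaling multiplies all ratios of the first kind by 1.35 and all of the second by 6.42, for the members described next as well. For let-7a and let-7f the libraries of the 2 types overlapped, with 1 high and 1 low library in each.

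**Figure D2:**
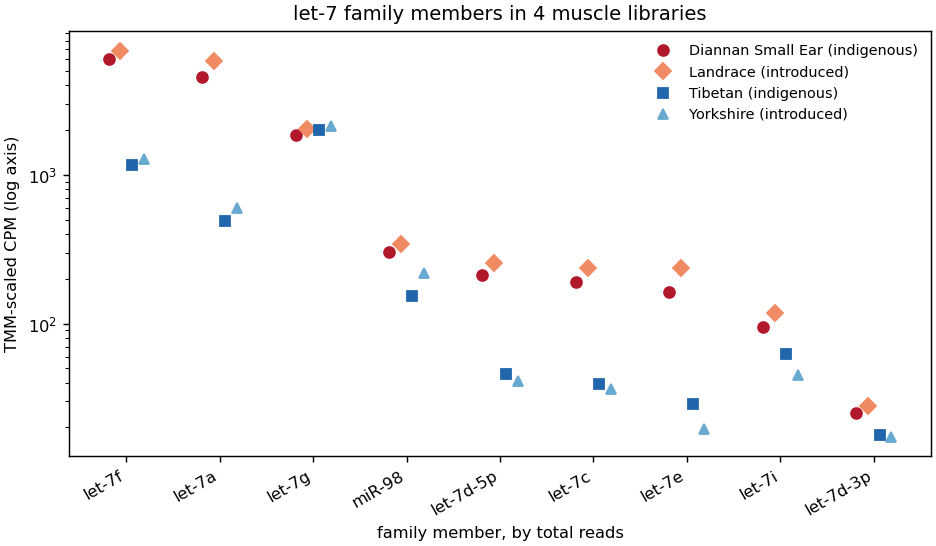
TMM-scaled CPM (y axis, log scale) of the 9 members (x axis, by total reads), 1 point per library. The 4 points of let-7g lie between 1845 and 2141 CPM, whereas those of let-7a spread from 492 to 5855.

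let-7e had the widest spread after TMM scaling. Its counts were 973 in Diannan Small Ear, 101 in the Tibetan, 1319 in the Landrace and 36 in the Yorkshire library, or 162, 28.6, 238 and 19.5 CPM, so that the highest level was 12.2 times the lowest. let-7c had 1133, 138, 1306 and 67 reads in that order, and let-7d-5p had 1268, 163, 1411 and 76. Both were more than 4-fold higher in Diannan Small Ear than in Tibetan (let-7c 4.84-fold, 4.06 to 5.82, and let-7d-5p 4.59-fold, 3.90 to 5.44). In Landrace they were 6.47-fold (5.06 to 8.40) and 6.17-fold (4.89 to 7.87) above Yorkshire.

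miR-98 was less uneven, with 1807 reads in Diannan Small Ear, 546 in the Tibetan, 1896 in the Landrace and 402 in the Yorkshire library, or 301, 154, 342 and 218 CPM. It was 1.95-fold higher in Diannan Small Ear than in Tibetan (1.77 to 2.15) and 1.57-fold higher in Landrace than in Yorkshire (1.41 to 1.75). let-7i had 571, 220, 655 and 83 reads, and ratios of 1.53-fold (1.31 to 1.80) and 2.62-fold (2.08 to 3.33). let-7d-3p, with 150, 63, 154 and 32 reads, was the least abundant member in every library, and its ratios were 1.40-fold (1.04 to 1.92) and 1.60-fold (1.09 to 2.42). let-7g alone had ratios below 1, at 0.919 (0.892 to 0.947) and 0.953 (0.919 to 0.989). With total counts these became 1.24 and 6.12, so the direction for let-7g depends on the scaling.

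Counted over the breed pairs after TMM scaling, 5 of 9 members were at least 2-fold higher in Diannan Small Ear than in Tibetan, where 27.3% of all miRNAs with reads in both were, and 0 were 2-fold lower, against 36.6% of all. In Landrace 6 of 9 were at least 2-fold above Yorkshire (32.3% of all) and 0 below (34.4%). Against Yorkshire, Diannan Small Ear had 6 of 9 at least 2-fold higher (32.8%) and 0 lower (33.9%). Tibetan had 6 of 9 at least 2-fold below Landrace (29.9%) and 0 above (38.7%). No member differed 2-fold between Diannan Small Ear and Landrace, where 4.08% of all miRNAs were higher and 4.59% lower, or between Tibetan and Yorkshire, where 14.6% were higher and 9.90% lower. With total counts this changed: all 9 members were then at least 2-fold higher in Tibetan than in Yorkshire (2.02 to 4.18), as were 79.7% of all miRNAs, and 4 of 9 were at least 2-fold lower in the Diannan Small Ear library than in that of Landrace, as were 30.6% of all. Total counts also gave 7 of 9 members at least 2-fold higher in Diannan Small Ear than in Tibetan (37.6% of all) and 9 of 9 in each comparison of Landrace or Diannan Small Ear over Yorkshire (73.4% and 64.6%) and of Landrace over Tibetan (47.9%). No member passed 2-fold in the opposite directions with total counts. Of all miRNAs 32.5% were lower in the Diannan Small Ear library than in that of Tibetan and 13.5% lower than in that of Yorkshire. Compared with Landrace, 2.04% were higher in Diannan Small Ear and 21.6% higher in Tibetan. Compared with Yorkshire, 1.04% were lower in Tibetan and 7.29% lower in Landrace. With TMM the median log2 ratio of the members was 2.20 for Diannan Small Ear over Tibetan and 2.42 for Landrace over Yorkshire, beside medians of -0.19 and -0.21 over all miRNAs. It was -0.27 for Diannan Small Ear over Landrace and 0.04 for Tibetan over Yorkshire, beside 0.03 and 0.18. Comparisons that use the same library are not independent of each other, and with 1 library a breed none has a replicate check.

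**Figure D3:**
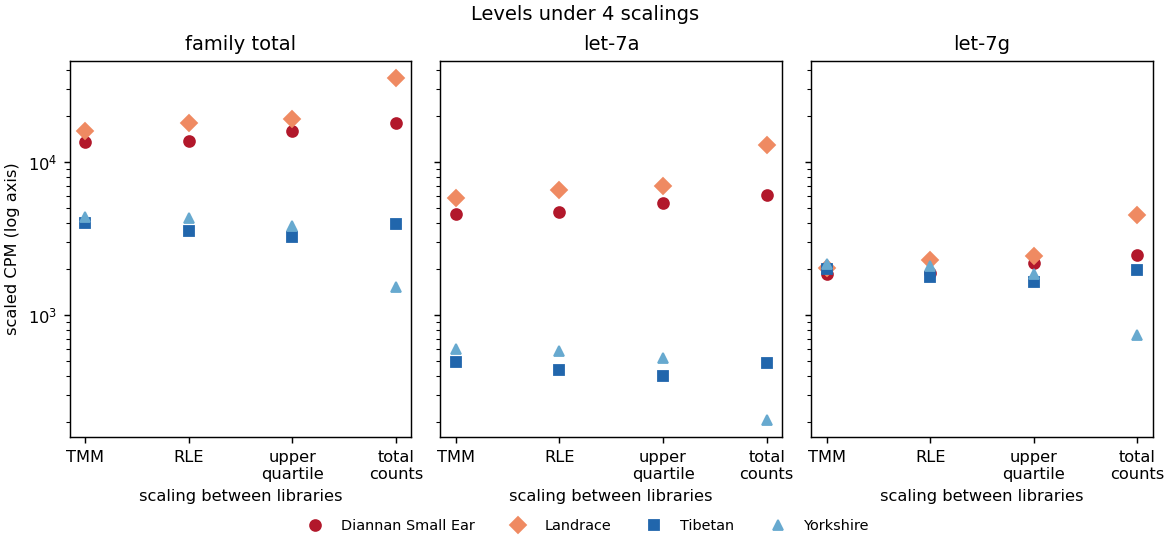
Scaled CPM (y axis, log scale, shared by the 3 panels) of the summed family, let-7a and let-7g under 4 scalings (x axis), 1 point per library. The family and let-7a keep Diannan Small Ear and Landrace above Tibetan and Yorkshire throughout, while the 4 points of let-7g lie within a factor of 1.16 with TMM and of 6.12 with total counts.

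Ratios of 2 miRNAs within a library need no scaling and show which members kept step. let-7f and let-7d-5p, whose genes MIRLET7F-2 and MIRLET7D are adjacent in the annotation, kept close to the same ratio. Here too, let-7f reads can also come from MIRLET7F-1. let-7f had 28.5 times the reads of let-7d-5p in Diannan Small Ear (95% counting interval 27.0 to 30.2), 25.1 times in Tibetan (21.5 to 29.6), 27.0 times in Landrace (25.6 to 28.4) and 31.0 times in Yorkshire (24.6 to 39.4). The 4 intervals overlap. let-7c and let-7d-5p, which are not neighbours, kept the steadiest ratio of all 36 member pairs, with a range of 0.13 on the log2 scale over the 4 libraries. As this pair was picked for its small range, its place among other pairs shows no link between the 2. In Yorkshire its ratio rested on 67 reads of let-7c and 76 of let-7d-5p. Among all 18145 pairs of the 191 miRNAs that had reads in every library, the median range was 3.21. Over the 36 member pairs the range had a median of 1.72 and reached 3.67, for let-7e with let-7g.

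The ratio of let-7a to let-7g turned over between libraries. let-7a had 2.48 times the reads of let-7g in Diannan Small Ear (2.42 to 2.53) and 2.87 times in Landrace (2.81 to 2.93), but 0.245 times in Tibetan (0.232 to 0.258) and 0.279 times in Yorkshire (0.261 to 0.299). let-7f exceeded let-7a in all 4 libraries, by 1.32-fold in Diannan Small Ear (1.30 to 1.34), 2.35-fold in Tibetan (2.22 to 2.49), 1.17-fold in Landrace (1.15 to 1.19) and 2.14-fold in Yorkshire (1.99 to 2.30). Their genes MIRLET7F-2 and MIRLET7A-2 are adjacent, within 1 kb, yet the ratio was not kept. Both miRNAs also have a second gene.

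Products of 1 precursor did not keep step either. The let-7d-5p arm, the strand usually loaded into the silencing complex, had 8.45 times the reads of let-7d-3p in Diannan Small Ear (7.13 to 10.1) and 9.16 times in Landrace (7.75 to 10.9). In Tibetan the ratio was 2.59 (1.92 to 3.52) and in Yorkshire 2.38 (1.55 to 3.71). The intervals of the first 2 libraries do not overlap those of the last 2. On this precursor a lower 5p level in Tibetan and Yorkshire therefore went with a 3p level that was closer between libraries. miR-98 and let-7f, from the adjacent genes MIR98 and MIRLET7F-1, also parted. let-7f had 20.03 times the reads of miR-98 in Diannan Small Ear and 20.06 times in Landrace, against 7.50 times in Tibetan and 5.85 times in Yorkshire. Part of the let-7f reads can come from its second gene.

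Other let-7 genes lie beside genes of the miR-99 and miR-125 families. miR-125 is the vertebrate relative of lin-4, another timing miRNA of the worm, and miR-99 and miR-100 are known to target MTOR. In the annotation MIRLET7C is adjacent to MIR99A, MIRLET7E lies between MIR99B and MIR125A, and MIRLET7A-1 lies between MIR100 and MIR125B-1. Of the 5 neighbouring miRNAs 0 passed the test between types in either direction. All 5 had estimates that were higher in indigenous breeds, as were 60.9% of those of all miRNAs tested (median log2 fold change 0.42, beside 0.12 over all 197 tested miRNAs).

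miR-99a and let-7c differed most from each other. miR-99a had 2077 reads in Diannan Small Ear, 29131 in the Tibetan, 1673 in the Landrace and 11231 in the Yorkshire library. It therefore had 1.83 times the reads of let-7c in Diannan Small Ear (1.70 to 1.97) and 1.28 times in Landrace (1.19 to 1.38), but 211 times in Tibetan (179 to 251) and 168 times in Yorkshire (132 to 216). Within this pair of adjacent genes, let-7c was high where miR-99a was low.

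In the other clusters too the ratio of the neighbour to its let-7 member was higher in Tibetan and Yorkshire. miR-100 had 0.110 times the reads of let-7a in Diannan Small Ear (0.105 to 0.114) and 0.0863 times in Landrace (0.0830 to 0.0897), and 3.83 times in Tibetan (3.63 to 4.04) and 1.74 times in Yorkshire (1.62 to 1.88). miR-125b went from 0.0864 and 0.0612 times the reads of let-7a in Diannan Small Ear and Landrace to 1.14 and 0.730 times in Tibetan and Yorkshire. For both, let-7a reads can also come from MIRLET7A-2.

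In the cluster of let-7e, miR-99b had 3.80 times its reads in Diannan Small Ear (3.54 to 4.08) and 2.45 times in Landrace (2.30 to 2.62), against 37.8 times in Tibetan (31.0 to 46.5) and 24.9 times in Yorkshire (17.9 to 35.8). After TMM scaling miR-99b itself did not set these libraries apart, at 616 CPM in Diannan Small Ear, 1078 in the Tibetan, 583 in the Landrace and 488 in the Yorkshire library. miR-125a was high where let-7e was high (506, 187, 460 and 141 CPM) and stayed nearer to it, at 3.12 times the reads of let-7e in Diannan Small Ear (2.90 to 3.35), 6.53 in Tibetan (5.29 to 8.14), 1.94 in Landrace (1.81 to 2.07) and 7.19 in Yorkshire (5.06 to 10.5). Of the ratios of these 5 neighbours to let-7 members, 4 had a wider range over the libraries than the median pair of miRNAs, and miR-125a with let-7e a narrower one (1.89 on the log2 scale).

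**Figure D4:**
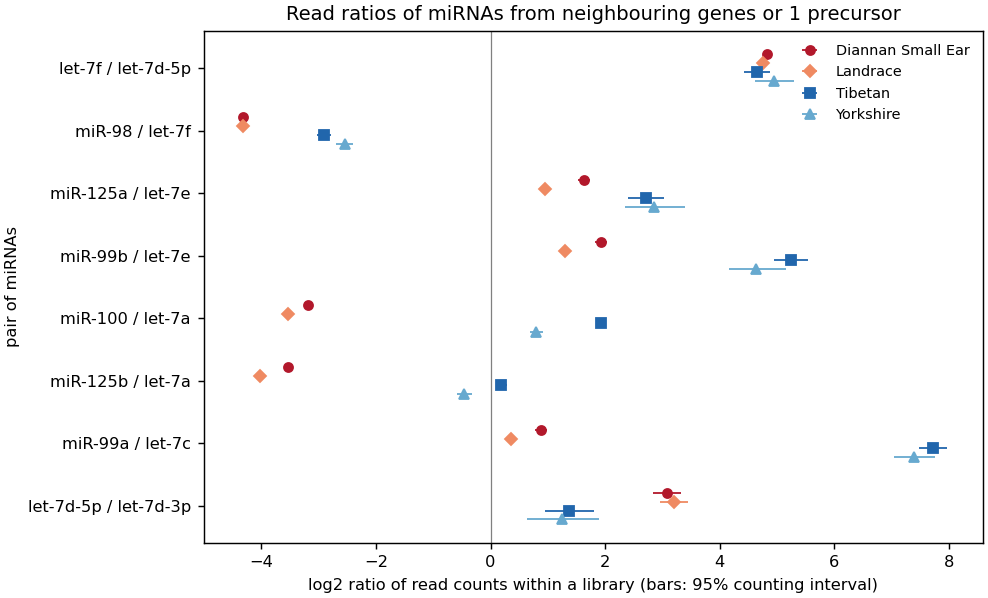
log2 ratio of read counts within a library (x axis) for pairs of miRNAs from adjacent genes, and for the 2 arms of let-7d in the lowest line (y axis), with 95% counting intervals. The adjacent pair of let-7f and let-7a is not shown. The 4 points of let-7f over let-7d-5p lie together, while Tibetan and Yorkshire lie to the right of Diannan Small Ear and Landrace for every neighbour over its let-7 member and to the left for the let-7d arms.

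Between the types of pig no member passed the test, although the libraries of let-7g narrowly did not overlap after TMM scaling. All 9 members passed the low-count filter. In edgeR's quasi-likelihood test over 197 miRNAs, 0 of 9 members passed an adjusted p of 0.05, and of all 197 tested 0% did. At an unadjusted p under 0.05, 1 of the 197 passed (0.508%), which was not a member, and DESeq2 and limma-voom also called 0 of 197 with 1 at an unadjusted p under 0.05. For the summed family the mean log2 difference between types was -0.19, beside 1.75 for Diannan Small Ear over Tibetan and 1.86 for Landrace over Yorkshire.

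let-7a measured 2531 ± 2884 TMM-scaled CPM in indigenous and 3227 ± 3717 in introduced breeds (SD, n = 2 each). Its log2 fold change was -0.35 ± 1.67 (SE, edgeR adjusted p = 0.996). let-7f measured 3596 ± 3450 against 4067 ± 3946 CPM (-0.18 ± 1.43). let-7g had by far the smaller spread among the 3 abundant members, at 1926 ± 115 against 2091 ± 70.8 CPM (-0.12 ± 0.87). Its SE reflects a spread that edgeR shares over miRNAs, so it is not that of let-7g alone. miR-98 measured 228 ± 104 against 280 ± 87.4 CPM (-0.30 ± 0.87), and the largest estimate was that of let-7e (-0.43 ± 1.57). The adjusted p was 0.996 for all 9.

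The estimates of all 9 members were lower in indigenous breeds, as were 39.1% of those of all 197 miRNAs, and each was smaller than its SE. Their median was -0.20 beside 0.12 for all. The direction rests on which libraries enter. Without Tibetan 8 of 9 estimates were higher in indigenous breeds, and without Landrace all 9 were, while without Diannan Small Ear or Yorkshire all 9 were lower. The summed family measured 8720 ± 6668 TMM-scaled CPM in indigenous and 10181 ± 8184 in introduced breeds. Between the types the mean log2 difference of -0.19 became 0.20 with total counts, whereas the log2 ratio of the means was -0.22 with TMM and -0.75 with total counts. The estimates of all 9 members stayed lower in indigenous breeds with total counts (median -0.77). let-7g was the 1 member of 9 whose types did not overlap, with both indigenous libraries below both introduced ones, as in 5.58% of all miRNAs. This rests on Tibetan against Landrace, whose ratio of 0.984 had a counting interval of 0.955 to 1.014, which includes equal levels. 0 members had both indigenous libraries above, against 8.12% of all. The types of let-7g overlapped with upper-quartile and total-count scaling.

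The shares within the family did not separate the types either. let-7a held 23.1 ± 15.4% of the family in indigenous and 25.1 ± 16.3% in introduced breeds (SD, n = 2 each), let-7f 36.9 ± 11.3% against 36.0 ± 9.81%, and let-7g 31.9 ± 25.7% against 30.7 ± 25.4%. In each case the difference of the means was far below the SD. With 2 libraries against 2, an exact two-sided permutation test cannot give a p below 0.333, so none was made.

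The authors' deposited table calls most of the family between the types. Of the 9 members, 8 have an FDR under 0.05 in the authors' deposited table, all 8 lower in indigenous breeds, whereas 30.6% of all 271 rows have such an FDR, 16.2% lower and 14.4% higher. The FDR in the authors' deposited table is 6.27e-245 for let-7a at a fold of 0.499, and 3.91e-185 for let-7f at a fold of 0.588. For let-7g the authors' deposited table gives a fold of 0.844 and an FDR of 3.02e-08, and for let-7d-3p, the 1 member above the limit, 0.755 and 0.741. Their folds are ratios of mean CPM scaled by total counts, and the sources used here do not name the test behind their p-values. The edgeR test, which measures the spread between libraries of a type, called 0 of the same 9. Its fitted coefficient of variation was 98.6% with 2 residual degrees of freedom, so a lack of calls does not show that the types are equal.

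**Figure D5:**
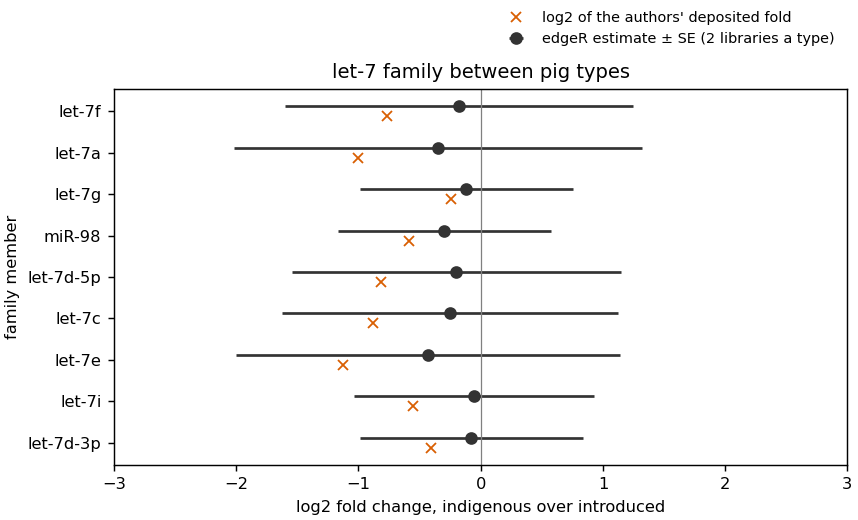
log2 fold change of indigenous over introduced breeds (x axis) for the 9 members (y axis). Points with bars are edgeR estimates ± SE from 2 libraries a type, which all span 0, and crosses are the log2 of the fold in the authors' deposited table, which lie further to the left for each member.

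Beyond the family, 73 other miRNAs with a mean of at least 100 TMM-scaled CPM were ranked by how closely their level over the 4 libraries followed that of the summed family. The measure was the root mean square difference of log2(CPM + 1) after centring each miRNA on its mean. The closest were miR-186 (0.14), miR-27b-3p (0.17), miR-125a (0.26), miR-1468 (0.27) and miR-30d (0.29). miR-27b-3p, which is known to repress PPARG and adipocyte differentiation, measured 7259 CPM in Diannan Small Ear, 2754 in the Tibetan, 8461 in the Landrace and 2901 in the Yorkshire library. miR-186 measured 928, 259, 866 and 254 CPM in that order. Among the members of at least that level, let-7f was nearest to the sum, at 0.30, and let-7g differed by 0.95. These values cannot be compared with those of the 5, which were picked as the closest of 73. The sum also mixes members with unlike profiles, so each member differs from it. The least alike were miR-1 (5.80), miR-374a-5p (4.35) and miR-206 (4.29), of which miR-1 and miR-206 are muscle-specific. With 4 libraries this is a description of likeness and carries no test.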

How the data were processed

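Small RNA of pig longissimus dorsi was sequenced on a HiSeq 2000, per the labels, from 4 libraries. Total RNA was extracted with Trizol and libraries made with a Balancer kit, per the labels' protocols. The authors deposited whole-number read counts per miRNA and library. They also deposited CPM values, which equalled each count over its column total to within 4.2e-05, and a mean signal per type. The fold, p-value and FDR columns are the authors' own as well, per the file headers. The sources used here name no aligner, database or build. Coordinates are therefore left out, and gene neighbours come from RefSeq (Sscrofa11.1). Names were matched by symbol.

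Types were compared with edgeR 4.0.16 (glmQLFit, glmQLFTest, two-sided) on all counts after filterByExpr and TMM, with Benjamini-Hochberg adjustment at 0.05 and 2 residual degrees of freedom. The code was tested on simulated data. Alternatives used DESeq2 1.42.0, limma 3.58.1, other scalings and filters, and left out single libraries. Read ratios carry 95% exact binomial and shares 95% Wilson intervals. The 9 members, all named (8 with at least 1000 reads in full), and all lists were chosen with earlier results of these data known. Neighbouring miRNAs and the 5 most and 3 least alike miRNAs were named by rule.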

Additional observations from a re-analysis of the deposited data

How the results depend on the processing

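No member was called under any of the 13 alternatives. The labels give no replicate numbers, so no pairing of libraries could be taken from them. A term for the pairing of Landrace with Diannan Small Ear and Yorkshire with Tibetan was taken from how the libraries resemble each other. It called 1 of 197 miRNAs (16 at an unadjusted p under 0.05), 0 of them members, and let-7i turned to 0.070. Since the pairing was chosen from the same counts, these p-values cannot be taken at face value. The fitted coefficient of variation fell from 98.6% to 35.3% with it. limma-voom turned let-7e to 0.035 and let-7i to 0.089.

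With 1 library left out, log2 fold changes ranged from -2.85 to 2.25 for let-7a, -1.94 to 1.66 for let-7f, -0.21 to 0.00503 for let-7g, -0.98 to 0.22 for miR-98, -1.81 to 1.81 for let-7d-5p, -1.93 to 1.81 for let-7c, -2.31 to 2.45 for let-7e, -0.70 to 0.97 for let-7i and -0.49 to 0.46 for let-7d-3p. The lone library of a type is then assumed to vary like the others. The difference of let-7a shares ranged from -13.5 to 9.53 percentage points and that of the summed family from -1.24 to 0.90 (log2).

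Family ratios between breeds moved with the scaling. Diannan Small Ear over Tibetan was 3.88 with RLE, 4.88 with upper-quartile and 4.54 with total-count scaling, and 4.34 without the 5 most abundant miRNAs. In that order, Diannan Small Ear over Landrace was 0.766, 0.831, 0.507 and 0.764, Diannan Small Ear over Yorkshire 3.22, 4.17, 11.8 and 3.54, Tibetan over Landrace 0.198, 0.170, 0.112 and 0.176, Tibetan over Yorkshire 0.831, 0.854, 2.605, a turn in direction, and 0.816, and Landrace over Yorkshire 4.21, 5.01, 23.3 and 4.64. The cause was not tested. At the lowest depth a count of 0 would have allowed up to 3 reads, or 1.20 CPM.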
